A study of Mus musculus with 8 samples.

Results

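The transcripts of 36 genes that encode lysosomal proteases, other lysosomal hydrolases, lipid-handling proteins and lysosomal membrane proteins were examined in sorted mouse bone marrow cells. The genes were chosen by name for the role of their products, with earlier results of these data known. All 36 were found among the 53647 gene identifiers of the count files. All 36 also passed the filter on low counts, which left 16352 genes for testing. RNA was sequenced from Lin- CD127+ cells, that is, cells without lineage markers that carry the interleukin 7 receptor alpha chain on their surface. Of the 8 libraries, 4 came from Trerf1 knockout (KO) marrow and 4 from wild-type (WT) marrow with the genotype Trerf1 +/+. The KO genotype entry is spelled Tref1 -/-, and the titles call these libraries KO1 to KO4. Trerf1 encodes a zinc finger transcription regulator. The labels give no strain, age, sex, allele or Cre driver, and they state no agent. Nothing says that the numbered libraries of a group are separate animals. The p-values therefore reflect only the variation among these 8 libraries, which may be technical.

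The lysosome is the acidic compartment in which cells break down proteins, glycans, lipids and material taken up from outside. Its enzymes are made as precursors in the endoplasmic reticulum and delivered through the Golgi, many of them by mannose 6-phosphate receptors, while a proton pump keeps the lumen acidic. Transcription factors of the MiT/TFE family, such as Tfeb, bind E-box elements with the core CACGTG in the promoters of many lysosomal genes, where the extended element is known as the CLEAR motif. In bone marrow, plasmacytoid dendritic cells, monocytes and macrophages are known for a rich endolysosomal system, which in dendritic cells serves antigen processing and nucleic acid sensing.

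Promoter sequence was looked up because the E-box is the element by which lysosomal genes are known to be regulated together. RefSeq promoter windows (build GRCm38.p6, from 250 bases before to 50 bases after a transcript start) were available for 32 of the 36 genes. The letters CACGTG, which read the same on both strands, occurred in the windows of 12 of the 32 genes (37.5%), against 8.09% of all 27025 genes with a window. The longer TCACGTGA, which contains CACGTG and is also its own reverse complement, occurred in 4 of 32 (12.5%), namely Ctsa, Ctsd, Gla and Mcoln1, against 1.12% of all genes. The 27025 genes were neither limited to genes expressed in these cells nor matched for GC content, so the shares are not like for like. A match is only a run of letters and was not tested for binding. Lamp1 held 4 copies of CACGTG, the most of any member, and Ctsa, Ctsd, Gla and Mcoln1 held 2 copies each. The copies just upstream of the membrane protein genes Lamp1 and Mcoln1 are shown 5′ to 3′ on the strand of the gene, with each CACGTG in capitals.
Lamp1 (chr8:13159086-13159160, plus strand): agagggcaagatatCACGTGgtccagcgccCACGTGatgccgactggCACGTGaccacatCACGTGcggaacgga
Mcoln1 (chr8:3500434-3500518, plus strand): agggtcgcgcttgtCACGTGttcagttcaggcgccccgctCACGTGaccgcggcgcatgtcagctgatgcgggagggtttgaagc

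Copies in enzyme genes were embedded in different flanks, as 1 window of 26 bases from each of 6 genes shows. The capitals again mark CACGTG, and the genes encode a protease (Ctsa), glycosidases and a sulfatase (Gla, Glb1, Naglu, Sgsh) and legumain (Lgmn).
Ctsa (chr2:164833751-164833776, plus strand): agcaaactgtCACGTGatgcagatgc
Gla (chrX:134601184-134601209, minus strand): agatctcggtCACGTGagcaactctc
Glb1 (chr9:114401020-114401045, plus strand): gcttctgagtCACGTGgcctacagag
Naglu (chr11:101070011-101070036, plus strand): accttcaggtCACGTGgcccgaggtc
Sgsh (chr11:119355524-119355549, minus strand): gcctgccgtgCACGTGaccgtgggga
Lgmn (chr12:102439126-102439151, minus strand): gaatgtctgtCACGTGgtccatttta

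The other members with the motif were Ctsd, Ctsf, Ctsl and Gaa. The 250 bases before the start of Ctsd and before 1 annotated start of Psap are shown in full, since these 2 genes stood near opposite ends of the spread between libraries described further on. CACGTG is in capitals, and neither of the Psap windows held it.
Ctsd (chr7:142387828-142388077, minus strand): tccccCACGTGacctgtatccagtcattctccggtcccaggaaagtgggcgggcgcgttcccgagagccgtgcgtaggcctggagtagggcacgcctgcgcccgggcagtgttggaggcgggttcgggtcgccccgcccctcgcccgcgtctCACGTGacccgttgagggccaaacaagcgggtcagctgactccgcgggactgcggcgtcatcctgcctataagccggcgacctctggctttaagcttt
Psap (chr10:60277378-60277627, plus strand): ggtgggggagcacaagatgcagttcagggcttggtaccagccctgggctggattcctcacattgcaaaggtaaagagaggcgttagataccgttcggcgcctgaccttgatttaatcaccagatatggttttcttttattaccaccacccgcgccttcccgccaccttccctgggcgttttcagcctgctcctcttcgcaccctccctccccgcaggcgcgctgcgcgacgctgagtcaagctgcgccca
The GC content was 67.2% in the Ctsd sequence and 58.8% in the Psap sequence, against a median of 52.4% over all windows.

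Total counts per library were 32821991 to 66515540 in KO and 31109744 to 73414626 in WT. Trerf1 itself stood at 13.4, 12.8, 12.1 and 22.1 CPM (counts scaled to a common library total with TMM factors) in the libraries labelled KO1 to KO4, against 29.0, 32.1, 27.1 and 22.3 CPM in WT1 to WT4. The library labelled KO4 thus had a Trerf1 level within 1 CPM of WT4, and the label of that library is not borne out by this gene. The log2 fold change of Trerf1 was -0.87 ± 0.20 (standard error; edgeR quasi-likelihood test, Benjamini-Hochberg adjusted p = 0.999; two-sided exact permutation p = 0.0286, the smallest that 70 assignments allow). Il7r, which encodes CD127, was present in every library at 354 ± 45.8 CPM in KO and 324 ± 46.8 CPM in WT (SD, n = 4 each). The RNA of the inactive X chromosome, Xist, was at 447 to 768 CPM in 5 libraries (those labelled KO1, KO3 and KO4, with WT1 and WT4) and at 0.0607 to 0.613 CPM in the other 3 (KO2, WT2 and WT3).

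The 36 genes spanned a wide range of transcript levels. On the length-corrected TPM scale (transcript abundance relative to all transcripts, estimated by RSEM), the order of levels between genes can be read directly. Psap, which encodes the precursor of the saposins that present sphingolipids to hydrolases, was the highest at 2675 ± 474 TPM in KO and 2637 ± 921 TPM in WT, and ranked 37 among all genes by its mean over the 8 libraries. In the coordinates of the count files, whose header names GRCm39, Psap lies at chr10:60113449-60138376 on the plus strand. Ctsb, a cysteine protease (chr14:63359911-63383372, plus strand), followed with a mean of 1738 TPM over the 8 libraries, and Laptm5, a lysosomal membrane protein of blood cells, with 1074 TPM. Progranulin (Grn) had a mean of 840 TPM, Ctsh 683 TPM and Mpeg1, the pore-forming perforin-2, 681 TPM. The next were Ctsz at 451 TPM and Ctss at 447 TPM, both cysteine proteases, and Ctsa, the carboxypeptidase that also protects beta-galactosidase and neuraminidase, at 352 TPM. Several of these neighbours, such as Ctsh and Mpeg1 or Ctsz and Ctss, did not differ beyond their spread over libraries.

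Below them lay Npc2, the soluble cholesterol carrier, at 247 TPM, the aspartic protease Ctsd at 236 TPM and Ctsl at 235 TPM. Atp6ap1, an accessory subunit of the proton pump, was at 219 TPM. The glycosidases and other hydrolases formed a middle and low tier: Ppt1, which removes palmitate from proteins, was at 132 TPM, Hexa at 109 TPM, Man2b1 at 101 TPM and Gusb at 90.6 TPM, and Gla was the lowest member at 4.70 TPM. The classic lysosomal membrane markers were unequal. Lamp2 was at 116 ± 15.4 TPM in KO and 111 ± 17.9 TPM in WT, whereas Lamp1 was at 13.7 ± 1.61 TPM in KO and 14.1 ± 1.66 TPM in WT (SD, n = 4 each). Cd63, a tetraspanin of late endosomes, had a mean of 14.6 TPM. The summed TPM of the 36 genes was 12522, 9407, 10524 and 12229 in the libraries labelled KO1 to KO4, against 12146, 9108, 8513 and 14545 in WT1 to WT4. The lowest and highest sums were both WT libraries, and the KO libraries lay between them.

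**Figure D1:**
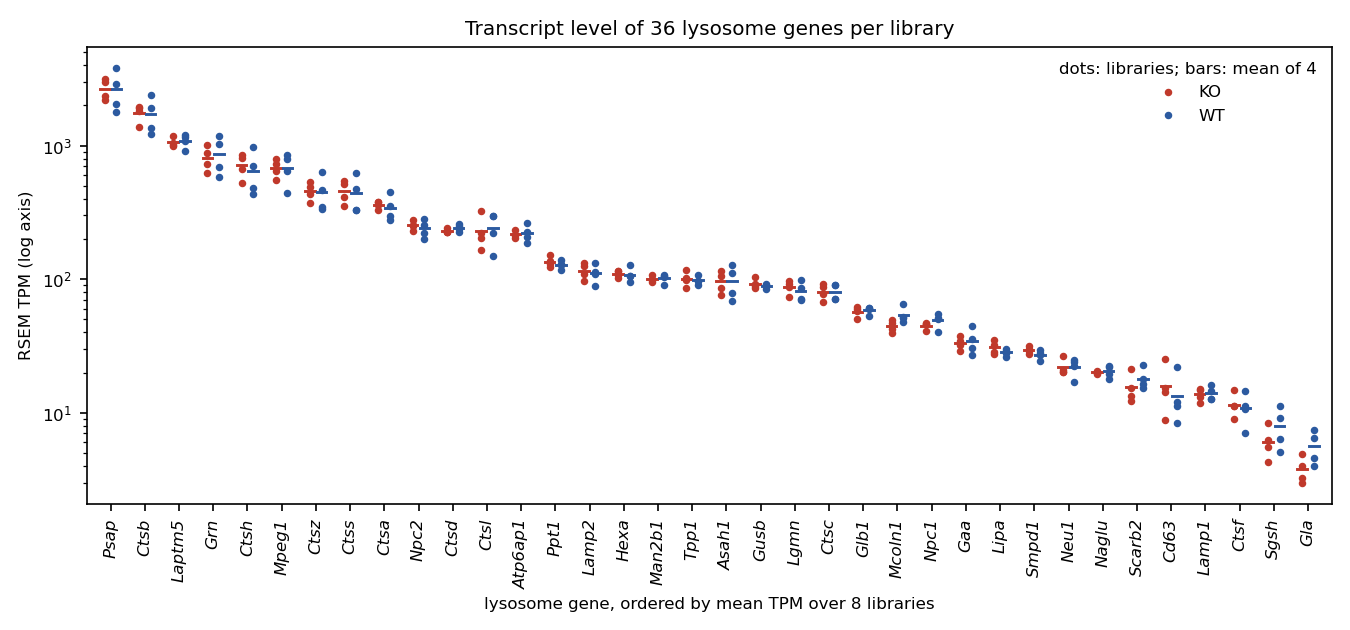
Transcript level (RSEM TPM, log axis) of each of the 36 genes, ordered by mean level, with KO libraries in red to the left of WT libraries in blue; dots are libraries and bars are means of 4. Levels run from 2656 TPM for Psap to 4.70 TPM for Gla, and the dots of both groups overlap for each gene.

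Knockout against wild type is the single comparison of the design. None of the 36 genes passed the test in either direction (edgeR quasi-likelihood test, adjusted p under 0.05), and over all genes tested the share was 0% higher and 0% lower in KO. None of the 36 reached an unadjusted p under 0.05 with edgeR, DESeq2 or limma-voom, where edgeR gave 1.97% of all genes tested, 1.04% higher and 0.93% lower in KO. For none of the 36 did the KO and WT libraries stand apart in CPM, where 0.74% of all genes tested stood apart with KO higher and 0.544% with KO lower. Estimates were higher in KO for 26 of the 36 genes (72.2%), for 51.7% of all genes tested and for 55.7% of genes with a mean of at least 10 CPM. The median log2 fold change of the 36 genes was 0.05, against 0.01 over all genes tested. Single estimates ran from -0.30 for Sgsh to 0.28 for Cd63, each with an adjusted p of 0.999. The 95% intervals of 23 of the 36 genes lay wholly within 0.5 of zero on the log2 scale, and those of all 36 lay within 1. Taken gene by gene and with the labels as given, the intervals thus stayed within a 2-fold difference either way. They rest on the spread among these libraries alone, and they do not show that the levels were equal. Without the library labelled KO4, 23 of the 36 estimates were higher in KO and the median log2 fold change was 0.04.

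**Figure D2:**
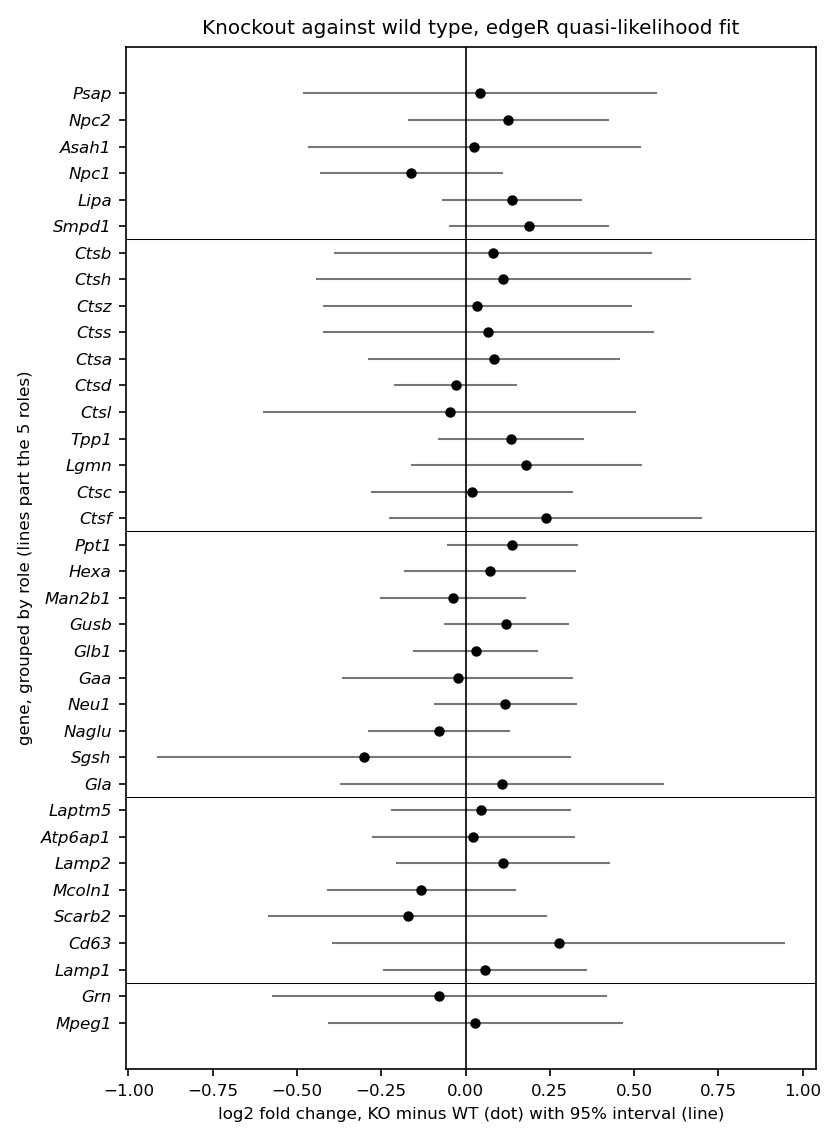
Log2 fold change of each gene, KO minus WT (dot), with its 95% interval (line) from the edgeR fit, grouped by role. Every interval crosses 0, from Sgsh at -0.30 to Cd63 at 0.28.

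Among the sphingolipid activators and lipid-handling proteins, Psap had 5882, 4466, 4734 and 5829 CPM in the libraries labelled KO1 to KO4, against 5482, 3281, 3843 and 7696 CPM in WT1 to WT4 (log2 fold change 0.04 ± 0.24, adjusted p = 0.999 by edgeR). WT4 was the highest and WT2 the lowest, so that the KO values all fell within the WT range. Npc2 had 726, 688, 632 and 620 CPM in KO, against 652, 541, 493 and 756 CPM in WT (log2 fold change 0.13 ± 0.13). WT4 was again the highest and WT3 the lowest. Asah1, the acid ceramidase, averaged 197 ± 30.6 CPM in KO and 194 ± 68.2 CPM in WT (SD, n = 4 each). Smpd1, the acid sphingomyelinase, averaged 55.0 ± 6.72 CPM in KO and 48.3 ± 1.88 CPM in WT, a log2 fold change of 0.19 ± 0.11 with the smallest unadjusted p of the 36 genes (0.103 by edgeR). Lipa, the acid lipase, stood at 68.1 ± 5.05 CPM in KO and 61.9 ± 4.44 CPM in WT, and the cholesterol exporter Npc1 at 124 ± 7.20 CPM in KO and 139 ± 22.8 CPM in WT.

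The proteases degrade proteins and, in antigen-presenting cells, process antigen and the invariant chain. Ctsb had 3512, 2660, 3324 and 3325 CPM in the libraries labelled KO1 to KO4, against 3380, 2270, 2110 and 4355 CPM in WT1 to WT4 (log2 fold change 0.08 ± 0.21). KO2 was the lowest of the KO libraries, WT2 and WT3 were the lowest of all, and WT4 was the highest. Ctsh, an aminopeptidase, had 659, 408, 523 and 616 CPM in KO, against 555, 362, 346 and 778 CPM in WT (log2 fold change 0.11 ± 0.25). Ctsz, a carboxypeptidase, had 538, 428, 473 and 531 CPM in KO, against 495, 354, 359 and 715 CPM in WT (log2 fold change 0.04 ± 0.21). As for Ctsb, WT4 was the highest of all 8 libraries and WT2 and WT3 the lowest for both genes. Ctss, which trims the invariant chain, had 529, 368, 430 and 495 CPM in KO, against 465, 314, 316 and 643 CPM in WT (log2 fold change 0.07 ± 0.22). Ctsa had 531, 455, 481 and 504 CPM in KO, against 462, 356, 390 and 650 CPM in WT (log2 fold change 0.08 ± 0.17). Ctsl had 355, 196, 254 and 259 CPM in KO, against 326, 215, 172 and 386 CPM in WT (log2 fold change -0.05 ± 0.25). KO1 was the highest KO library and KO2 the lowest for each of these 3, with WT4 the highest of all 8.

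Ctsd did not share this spread. It had 211, 206, 198 and 179 CPM in the libraries labelled KO1 to KO4, against 209, 203, 198 and 200 CPM in WT1 to WT4 (log2 fold change -0.03 ± 0.08). Its lowest library was the one labelled KO4 and its highest KO1, and all 4 WT libraries lay between them. Exons of another annotated gene cover 34.4% of the exonic length of Ctsd, and reads there were left out of the counts. In RSEM, which assigns such reads, Ctsd was as even, at 230 ± 7.93 TPM in KO and 243 ± 14.8 TPM in WT (SD, n = 4 each). Such overlap also covers 26.8% of Ctsl, 21.6% of Sgsh, 17.4% of Ctsa and 12.8% each of Ctsb and Hexa, so the CPM of these genes is uncertain where the kit, which does not mark strand, cannot assign a read. The remaining proteases were Ctsc, which activates granule serine proteases, at 157 ± 15.2 CPM in KO and 155 ± 28.9 CPM in WT, and Tpp1, a tripeptidyl peptidase, at 155 ± 13.8 CPM in KO and 141 ± 12.1 CPM in WT. Lgmn, an asparaginyl endopeptidase, averaged 127 ± 15.5 CPM in KO and 112 ± 25.4 CPM in WT, and Ctsf 16.2 ± 4.12 CPM in KO and 13.7 ± 2.96 CPM in WT.

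Most of the 10 glycosidases and other hydrolases were more even over libraries than the proteases just described, and Sgsh, Gla and Gaa were not. Glb1, beta-galactosidase, averaged 99.6 ± 6.79 CPM in KO and 97.6 ± 3.17 CPM in WT (SD, n = 4 each), and Gusb, beta-glucuronidase, averaged 165 ± 10.1 CPM in KO and 151 ± 8.78 CPM in WT. Naglu, which degrades heparan sulfate, stood at 38.7 ± 2.45 CPM in KO and 40.8 ± 2.11 CPM in WT. The other members of this group lay between Gla, the alpha-galactosidase, at 10.6 ± 2.73 CPM in KO and 9.88 ± 2.05 CPM in WT, and Ppt1 and Man2b1 at their upper end. Ppt1 averaged 248.5 ± 13.5 CPM in KO and 226 ± 16.8 CPM in WT, and Man2b1, an alpha-mannosidase, 242 ± 19.1 CPM in KO and 248 ± 22.8 CPM in WT. Hexa, a subunit of beta-hexosaminidase, had a log2 fold change of 0.07 ± 0.11, and the sialidase Neu1 0.12 ± 0.09. Gaa, which breaks down glycogen, had -0.02 ± 0.15, and its coefficient of variation over libraries was 15.1% in KO and 20.3% in WT. Sgsh, a sulfatase of heparan sulfate, had -0.30 ± 0.28 and varied by 30.6% in KO and 35.7% in WT. None of these differences exceeded the spread between libraries by the edgeR test.

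Of the 7 membrane proteins, Laptm5 had 1790, 1755, 1644 and 1556 CPM in the libraries labelled KO1 to KO4, against 1609, 1567, 1368 and 1990 CPM in WT1 to WT4 (log2 fold change 0.05 ± 0.12). WT4 was the highest and WT3 the lowest, and the KO values lay between them. Lamp2 averaged 265 ± 28.1 CPM in KO and 245 ± 48.0 CPM in WT, and Lamp1 19.7 ± 2.97 CPM in KO and 18.9 ± 1.24 CPM in WT. Atp6ap1 averaged 340 ± 18.04 CPM in KO and 334 ± 69.4 CPM in WT. Scarb2, the receptor that carries glucocerebrosidase to the lysosome, was at 59.2 ± 15.1 CPM in KO and 66.7 ± 13.6 CPM in WT, and the calcium channel Mcoln1 at 58.1 ± 8.64 CPM in KO and 63.6 ± 6.68 CPM in WT. Cd63 had the highest estimate of the 36 genes, at 12.6 ± 3.61 CPM in KO and 10.4 ± 4.60 CPM in WT. The 2 abundant members listed apart from these classes were Grn, a growth factor precursor cleaved into granulins, and Mpeg1. Grn had 1482, 977, 1103 and 1181 CPM in KO, against 1478, 943, 846 and 1737 CPM in WT (log2 fold change -0.08 ± 0.22), and Mpeg1 had 2697, 1984, 2243 and 2318 CPM in KO, against 2603, 2063, 1437 and 2953 CPM in WT (log2 fold change 0.03 ± 0.20). Both were highest in WT4 and lowest in WT3.

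**Figure D3:**
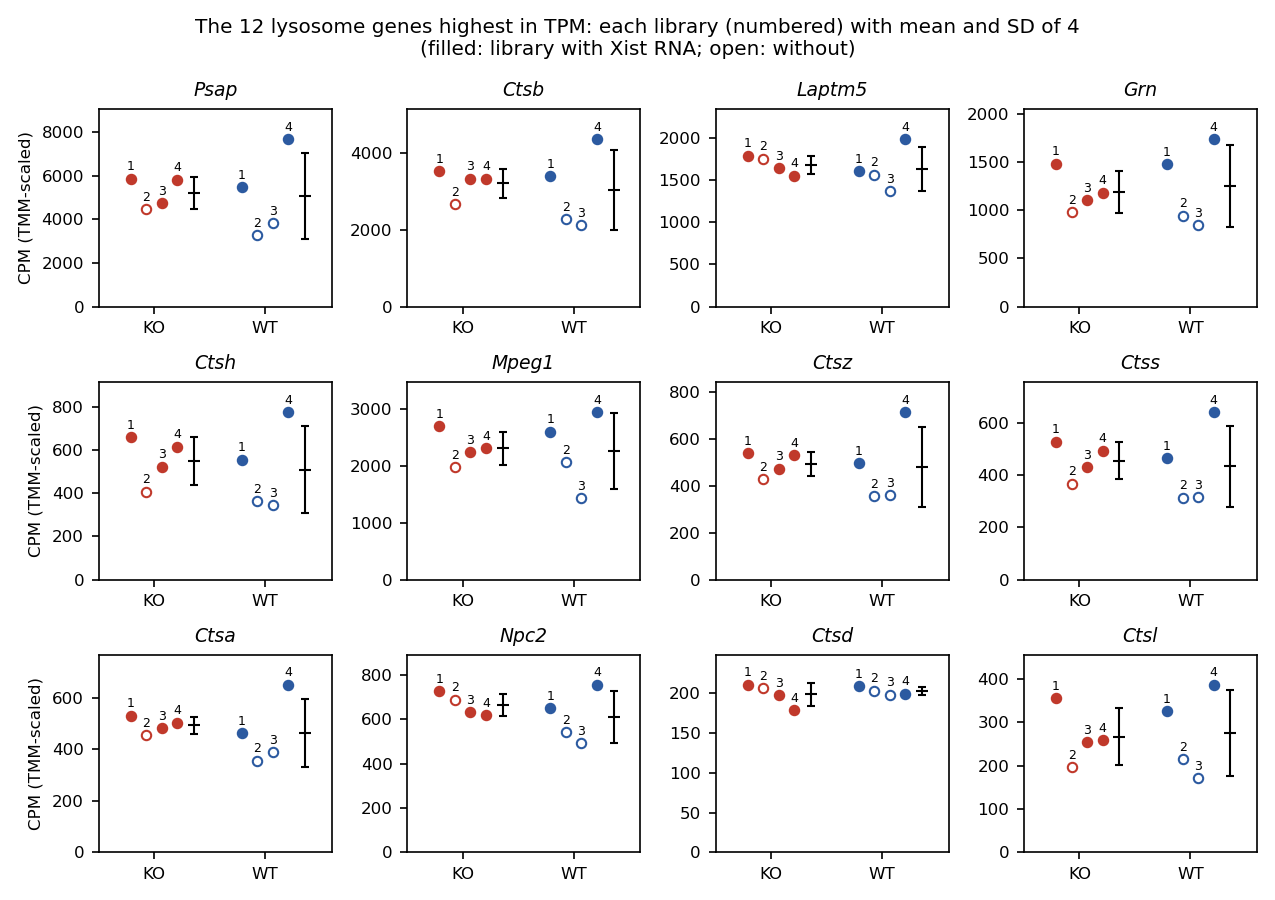
CPM of the 12 genes with the highest TPM, with KO to the left of WT; circles are libraries, numbered by replicate and open where Xist was near 0, and the black marks give mean and SD of 4. WT4 is the top WT library in each panel except that of Ctsd.

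The spread between libraries of one genotype was shared by many of the 36 genes. WT4 was the highest of all 8 libraries for 19 of the 36 genes (52.8%), against 13.5% of all genes tested and 18% of the 9036 genes with a mean of at least 10 CPM. WT1 and WT4 both lay above WT2 and WT3 for 24 of the 36 genes (66.7%), against 20% of all genes tested and 24.4% of the genes of at least 10 CPM. Among the KO libraries, KO1 was the highest for 27 genes (75%), against 24.6% and 27.1% in those 2 sets. The median ratio of the highest to the lowest library was 1.3 in KO and 1.57 in WT for the 36 genes, against 1.27 in KO and 1.31 in WT for genes of at least 10 CPM. These counts describe the libraries and were not tested, since genes within a library are not independent of each other.

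The spread differed by role. The median coefficient of variation over libraries was 11.7% in KO and 28.3% in WT for the 11 proteases, 9.83% in KO and 17.8% in WT for the 6 lipid-handling genes, and 7.36% in KO and 9.33% in WT for the 10 glycosidases and other hydrolases. For the 7 membrane proteins it was 14.9% in KO and 19.6% in WT. As a summary per library, the median over the 36 genes of log2 CPM minus each gene's mean was 0.19, -0.05, -0.01 and 0.01 in the libraries labelled KO1 to KO4, against 0.03, -0.12, -0.24 and 0.26 in WT1 to WT4 (0.04 ± 0.11 in KO and -0.02 ± 0.21 in WT, SD, n = 4 each). For the proteases alone it was 0.18, -0.15, -0.01 and 0.06 in KO, against 0.06, -0.34, -0.34 and 0.46 in WT. WT4 and KO1 were the high libraries, WT2, WT3 and KO2 the low ones, and the genotypes overlapped. WT4 and WT2, the 2 deepest WT libraries with 73414626 and 63498254 counts, lay on opposite sides of zero. The part of depth in this spread was not tested.

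**Figure D4:**
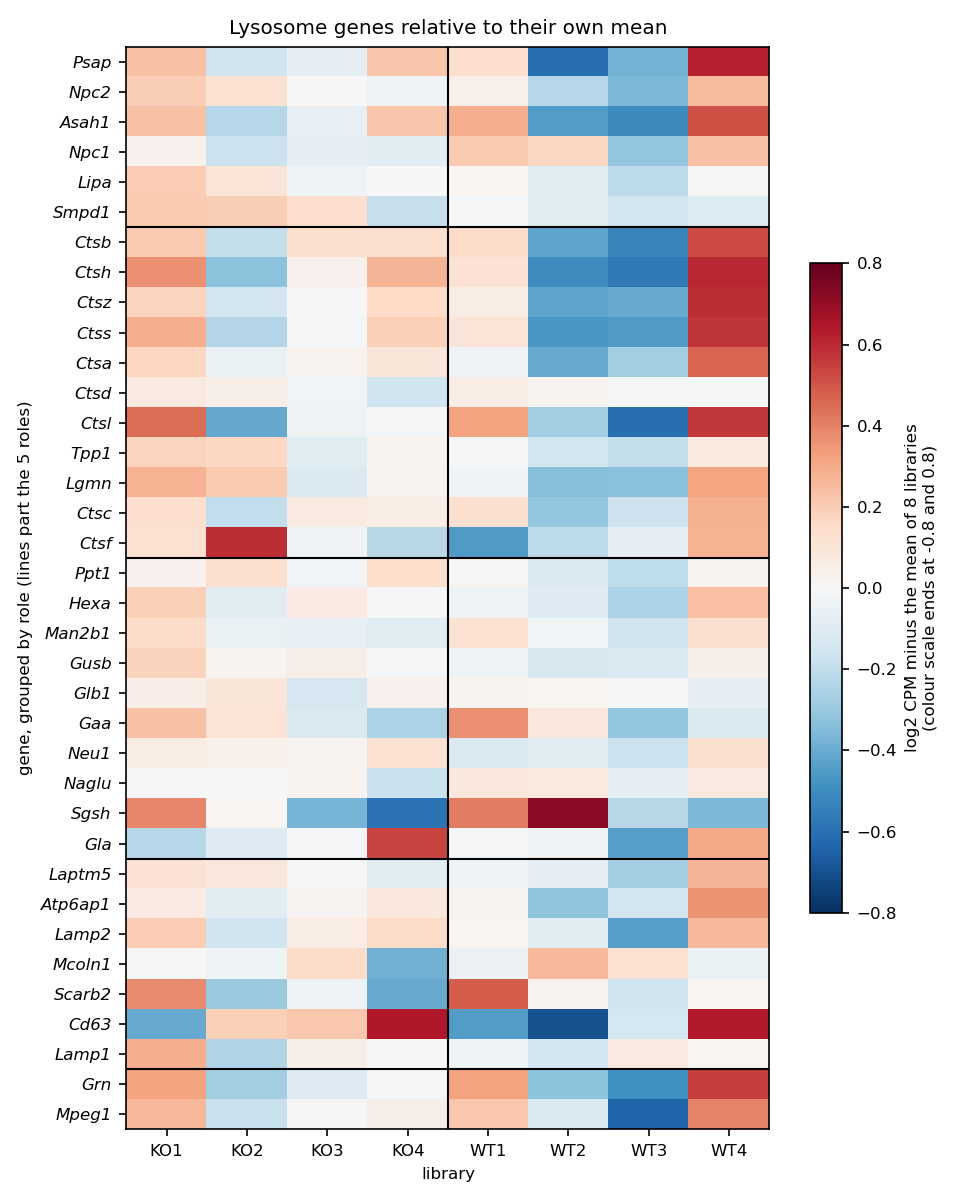
Log2 CPM of each gene in each library minus the gene's mean over 8 libraries, on a colour scale that ends at -0.8 and 0.8, grouped by role with KO columns to the left of WT columns. Most proteases, Psap, Grn and Mpeg1 are red in WT4 and KO1 and blue in WT2, WT3 and KO2, while Ctsd and most glycosidases stay pale.

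The 3 libraries in which Xist was near 0 had the lowest medians over the 36 genes, but KO2 at -0.05 was close to KO3 at -0.01. KO2 had 16 of the 36 genes above their own mean over libraries, and KO3, which had Xist, had 15. In 14 of the 36 genes (38.9%) each of the 5 libraries with Xist lay above each of the 3 libraries without it, whatever the genotype, against 5.91% of all genes tested and 7.9% of genes of at least 10 CPM. The reverse order was seen in 0 of the 36 genes, against 3.89% of all genes tested. The 14 were Psap and Asah1 among the lipid-handling genes, 7 of the 11 proteases (Ctsa, Ctsb, Ctsc, Ctsh, Ctsl, Ctss and Ctsz), Hexa alone among the 10 glycosidases and other hydrolases, the membrane proteins Lamp2 and Atp6ap1, and Grn and Mpeg1. Lamp2 and Atp6ap1 are on the X chromosome, as is Gla, which overlapped, and the other 12 of the 14 are on autosomes. Ctsh averaged 626 ± 99.8 CPM in the 5 libraries with Xist and 372 ± 32.0 CPM in the 3 without, a difference of 0.74 on the log2 scale. Ctsb averaged 3579 ± 440 CPM with Xist and 2346 ± 283 CPM without, and Psap 5925 ± 1091 CPM with Xist and 3863 ± 593 CPM without (SD, n = 5 and n = 3). The 36 genes had a median difference of 0.23, and all genes tested had one of -0.01. Margins were narrow for some genes: the lowest library with Xist had 462 CPM of Ctsa and the highest without it had 455 CPM. The labels do not name this split, which was read from Xist after the data were seen, so the values are a description without a test.

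Xist was present in 3 and near 0 in 1 of the KO libraries, and present in 2 and near 0 in 2 of the WT libraries, so the split is unequal between genotypes. With Xist class as a covariate, 17 of the 36 estimates were higher in KO and the median log2 fold change was -0.02. Within the 5 libraries with Xist, 8 of 36 were higher in KO and the median was -0.12. Within the 3 libraries without Xist, where KO2 is the single KO library and is assumed to vary like the WT libraries, 29 of 36 were higher and the median was 0.15. None of the 36 genes passed the adjusted threshold in any of these edgeR fits. The direction of the median over the 36 genes therefore depended on which libraries were compared.

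Markers of other cells were read beside the lysosomal genes, because a sorted population can hold several types. In bulk RNA, fewer cells of a type and less RNA per cell cannot be told apart. The 13 markers of plasmacytoid dendritic cells, all detected, summed to 6286, 4658, 5610 and 5902 CPM in the libraries labelled KO1 to KO4, against 5914, 4730, 4433 and 7936 CPM in WT1 to WT4. Their sums were lowest in WT3, KO2 and WT2 and highest in WT4 and KO1, the libraries that were low and high in lysosomal proteases. Siglech, a receptor of these cells, had 1530, 1120, 1523 and 1724 CPM in KO, against 1486, 1113, 969 and 2413 CPM in WT. In 10 of the 13 markers WT1 and WT4 lay above WT2 and WT3, against 20% of all genes tested. In 7 of the 13 (53.8%) all libraries with Xist lay above all libraries without it, against 5.91% of all genes tested. The part of these cells in the lysosomal values was not tested.

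B progenitor markers ran the other way as a sum, a large part of which was Dntt. The 12 of them summed to 2763, 4081, 2658 and 2180 CPM in the libraries labelled KO1 to KO4, against 2600, 3144, 3245 and 1781 CPM in WT1 to WT4, so that KO2, WT2 and WT3 were the 3 highest and WT4 the lowest. Dntt alone had 1760, 3025, 1792 and 1157 CPM in KO, against 1734, 2360, 2355 and 853 CPM in WT. Not all of the markers had this order, and Blnk was highest in WT4 at 452 CPM. WT2 and WT3 lay above WT1 and WT4 in 6 of the 12 and below them in 3. In 4 of the 12 (33.3%) all libraries with Xist lay below all libraries without it, against 3.89% of all genes tested. Of 15 monocyte and macrophage markers, 9 passed the filter, and these 9 summed to 413 to 575 CPM in KO and 301 to 459 CPM in WT. Most of that sum was Ly6c2, with a mean of 282 CPM in KO and 222 CPM in WT. WT1 and WT4 lay above WT2 and WT3 in 6 of those 9, against 20% of all genes tested. All libraries with Xist lay above all libraries without it in 2 of the 9 (22.2%), against 5.91% of all genes tested. Their estimates were higher in KO for 8 of the 9 (median log2 fold change 0.35), 2 of them with an unadjusted p under 0.05 and none past the adjusted threshold by edgeR. Several defining markers were near zero: Fcgr1, C1qa, C1qb and C1qc were below the filter, with C1qa at 0 in 5 of the 8 libraries. Conventional dendritic cell markers summed to 1348 to 1740 CPM in KO and 1269 to 1703 CPM in WT. Most of that sum was Flt3, with a mean of 1107 CPM in KO and 1066 CPM in WT. Zbtb46 averaged 2.78 CPM in KO and 2.56 CPM in WT, and Xcr1 1.96 and 2.22 CPM, while Itgax averaged 100 and 118 CPM. In 3 of 9 (33.3%) all libraries with Xist lay above all libraries without it, against 5.91% of all genes tested. Plasma cell markers had WT1 and WT4 above WT2 and WT3 in 4 of 6. The part of any of these cells in the lysosomal values was not tested.

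**Figure D5:**
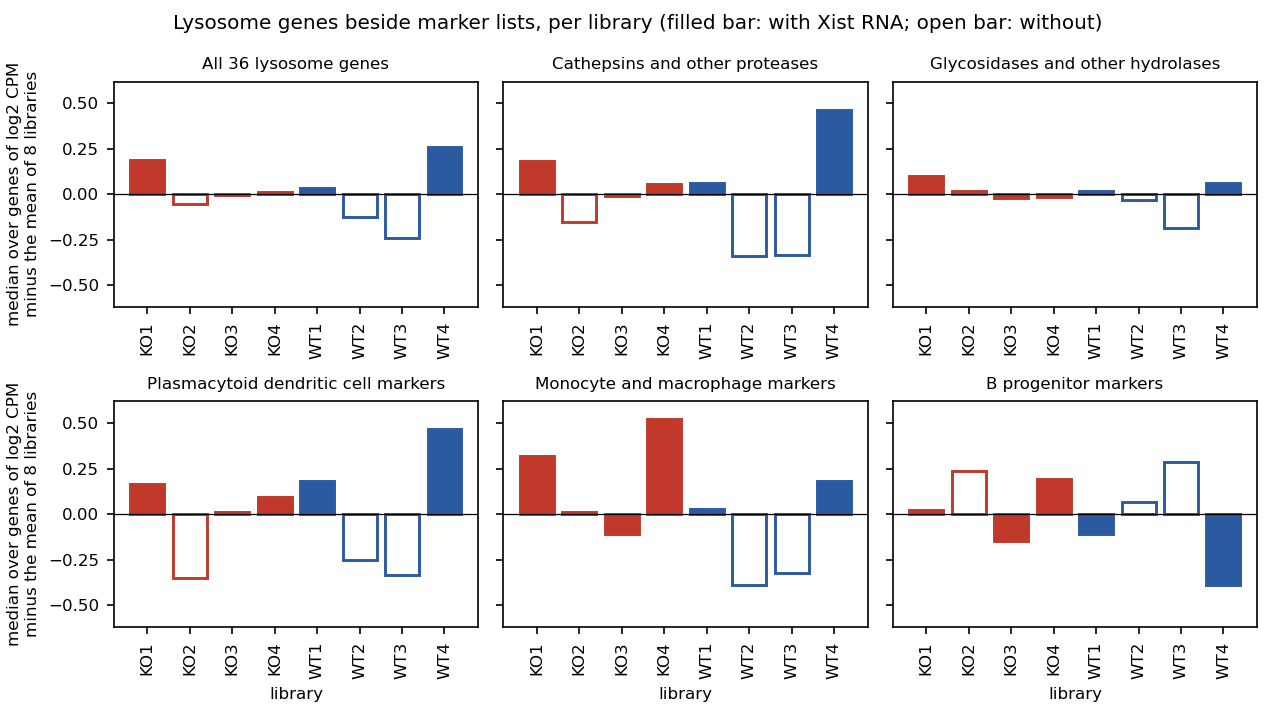
Median over genes of log2 CPM minus the mean of 8 libraries, for the 36 lysosomal genes, 2 of their roles and 3 marker lists, with KO in red to the left of WT in blue and open bars for libraries with Xist near 0. The plasmacytoid dendritic cell markers have the bar pattern of the proteases, high in WT4 and low in WT2, WT3 and KO2, and the B progenitor markers are highest in WT3 and KO2 and lowest in WT4.

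The rest of the lysosomal system was read from lists of genes outside the 36, and none of their genes passed the test in either direction (edgeR, adjusted p under 0.05, 0% of all genes tested). Of the MiT/TFE factors, Tfeb had 18.04, 15.3, 20.04 and 18.3 CPM in the libraries labelled KO1 to KO4, against 19.9, 17.6, 14.7 and 28.0 CPM in WT1 to WT4 (log2 fold change -0.16 ± 0.19). Tfe3 had 38.9, 40.0, 34.3 and 32.6 CPM in KO, against 45.5, 42.2, 31.8 and 33.5 CPM in WT (log2 fold change -0.07 ± 0.14). Both overlapped between the groups, and Mitf and Tfec, at log2 fold changes of 0.03 ± 0.28 and 0.14 ± 0.45, were near the bottom of the measured range. Among the 9 regulators, 4 estimates were higher and 5 lower in KO. Mtor, the kinase that holds Tfeb in the cytoplasm, had 39.3, 32.5, 31.3 and 37.4 CPM in KO, against 52.3, 53.7, 35.9 and 37.5 CPM in WT (log2 fold change -0.35 ± 0.15, unadjusted p = 0.0434 and adjusted p = 0.999 by edgeR).

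Over all genes tested, 51.7% of estimates were higher in KO, and 55.7% for genes of at least 10 CPM. Genes of a list are not independent, so the counts below were not tested. Of 15 tested subunits of the V-ATPase, the proton pump that acidifies the lysosome, 14 had higher and 1 a lower estimate in KO, with a median log2 fold change of 0.11. WT1 and WT4 lay above WT2 and WT3 in 10 of the 15, against 20% of all genes tested. Atp6v1g1 had 0.24 ± 0.15 and Atp6v1d 0.14 ± 0.10. In 4 of the 15 (26.7%) all libraries with Xist lay above all libraries without it, against 5.91% of all genes tested. Of the 9 genes of the mTORC1 platform on the lysosome, 8 had higher estimates and 1 a lower one (median 0.15), with Lamtor5 at 0.17 ± 0.11 and Rragd at 0.52 ± 0.40. Rragd was near the bottom of the measured range, with a mean of 0.94 CPM in KO and 0.65 CPM in WT. Of 10 genes that sort hydrolases to the lysosome, 2 were higher and 8 lower (median -0.08). The mannose 6-phosphate receptor Igf2r was at -0.46 ± 0.29 and the adaptor Gga3 at -0.14 ± 0.10. Of the 8 listed inhibitors of cathepsins, 4 were tested (median 0.13). Cst3, Cst7 and Cstb had higher estimates, and Serpinb6a, a serpin rather than a cystatin, had a lower one at -0.03 ± 0.17. Cst3 had 539, 510, 557 and 562 CPM in the libraries labelled KO1 to KO4, against 466, 405, 415 and 723 CPM in WT1 to WT4, and Cstb had a log2 fold change of 0.16 ± 0.10. Another 28 lysosomal enzymes had 18 higher and 10 lower estimates (median 0.02), with Ctsg at 0.46 ± 0.28 and Galns at 0.17 ± 0.12. Another 15 membrane proteins had 7 higher and 8 lower (median -0.01), with Slc38a9 at -0.15 ± 0.11 and Laptm4a at 0.10 ± 0.09.

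Between members with and without CACGTG in the promoter window, the median ratio of the highest to the lowest WT library was 1.59 over 12 genes with it and 1.52 over 20 without it. The median log2 fold change of KO against WT was 0.00 with the motif and 0.07 without it. The 4 genes that had no window, Asah1, Ctsb, Ctsh and Npc1, are missing from this comparison. Their median ratio was 2.05, higher than in either set. Ctsd, shown above with 2 copies, was among the most even of the 36 genes over libraries, and Ctsl, with 1 copy, was among the most variable.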

How the data were processed

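Libraries were grouped by title and genotype label, 4 KO and 4 WT. The authors deposited whole-number counts per gene, from featureCounts 1.6.4 per the file headers. They also deposited RSEM expected counts, which need not be whole, and TPM, and the submitters' processing notes name RSEM 1.3.1, STAR 2.6.0a, Picard 2.19 and build mm10. The featureCounts command line points to a GRCm39 annotation, per the file headers, so gene positions are printed as that build. Counts were 3.67 to 4.00 times the expected counts, and the cause was not tested. Under the defaults of featureCounts, reads that overlap several genes are left out and strand is ignored. The number of libraries and their spread (biological coefficient of variation 26.9%) limit the precision.

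The test was run in R 4.3.3 on the deposited counts with edgeR 4.0.16 (filterByExpr, TMM, quasi-likelihood F test, no covariate, Benjamini-Hochberg over 16352 genes, threshold 0.05). CPM is TMM-scaled, and errors are SD for levels and standard errors for log2 fold changes, which are KO minus WT. Log2 CPM per library used a prior count of 3. Levels between genes use TPM as deposited. Symbols were matched for 97.1% of identifiers.

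The members and lists were chosen with earlier results of these data known. All 36 members are named, with values per library for the 12 highest in TPM, and so are the 4 MiT/TFE factors, the 2 genes of smallest p of each other lysosomal list, Trerf1 and defining cell markers. Genes named for their order by Xist class were chosen after their values were seen. Alternatives were other scalings, no filter, DESeq2 1.42.0, limma-voom (limma 3.58.1), expected counts rounded to whole numbers, covariates, a replicate block and libraries left out. Fits within the libraries with Xist and within those without it were added after seeing the data, with a limit of 10 CPM of Xist between the 2 kinds.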

Additional observations from a re-analysis of the deposited data

Results flagged for a closer look

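Of 76 sets of 4 libraries (the 36 genes, Trerf1 and the median over the 36, each in both genotypes), 4 held a library whose gap to the nearest other, as a share of the range, was above Dixon's 95% critical value, and chance gives about 1 in 20. The library labelled KO4 had 22.1 CPM of Trerf1, where the other 3 KO libraries had 12.1 to 13.4 CPM. KO1 had 270.1 CPM of Man2b1, where the other KO libraries had 228.6 to 235.2 CPM. WT3 had 104.8 CPM of Npc1, where the other WT libraries had 146.3 to 153.1 CPM. WT3 also had 37.7 CPM of Naglu, where the other WT libraries had 41.7 to 42.1 CPM.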

How the results depend on the processing

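None of the 36 genes was called in any of 20 alternatives. Of 720 single fold changes under them, 672 moved by less than 1 standard error, and the smallest adjusted p of any of the 36 was 0.33 (Lgmn in the 3 libraries without Xist). Over all genes, 0 were called, except 12 lower in KO with WT4 and KO4 left out, and 2 higher and 2 lower in the 3 libraries without Xist. Trerf1 had -1.20 (adjusted p = 0.0473, edgeR) with WT4 and KO4 left out. The median log2 fold change of the 36 genes was 0.05 and became -0.12 in the 5 libraries with Xist, 0.18 without WT4 and KO4, and -0.04 (without WT3) to 0.18 (without WT4) when 1 library was left out. Higher estimates numbered 13 without WT3, 16 without WT2 and 19 without KO1, against 26 in all 8 libraries. The cause was not tested. Unadjusted p under 0.05 was reached by 5 of the 36 genes without WT4 and KO4, 4 in the 3 libraries without Xist, 3 without WT4, 2 in the 5 libraries with Xist, and 1 each without WT3, without KO4 and with RSEM expected counts. With the replicate number as a block the median was 0.09, no call changed, and the standard error of Psap was 0.135, against 0.236 without the block. Same-numbered libraries correlated at 0.514, 0.474, 0.0459 and 0.421 over 9036 genes, and the KO and WT libraries of numbers 1, 2 and 4 were each other's best match, while KO3 and WT3 were not. The labels do not say what a number stands for, and whether it marks a shared source was not settled. The residual spread among these 8 libraries limits what they can show.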
